A study of Mus musculus with 18 samples.

Results

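Adenosine was added to mouse double negative T cells whose adenosine A2a receptor (A2aR) was blocked with an inhibitor, and the transcriptome was compared with that of cells given the inhibitor alone. The comparison rests on 6 of the 18 libraries of the series, chosen by their treatment labels: 3 labelled RA, with 400 µM adenosine and 250 nM A2aR inhibitor, and 3 labelled R, with 250 nM A2aR inhibitor and no adenosine. All 6 came from wild type spleen and lymph node T cells that had been converted from CD4+ cells, and in all 6 the label names anti-CD3/CD28 antibody as a further stimulus. Exposure lasted 6 h. Another 6 libraries, with 400 µM adenosine (ADO) or without ligand (DNT) and with no inhibitor, served to ask where the effect of adenosine differed without the inhibitor. The labels do not say that the replicates are separate cultures or animals, so p-values measure the spread between these libraries, which may be technical. The labels used here name no age of the mice, no number of pooled animals and no compound name for the inhibitor.

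Adenosine outside the cell is made from ATP by the ectoenzymes CD39 and CD73 and is read by G protein-coupled receptors, of which A2aR and A2bR raise cyclic AMP and A1 and A3 lower it. In T cells A2aR is the best known of the family: cyclic AMP made after its engagement acts through protein kinase A and CREB family factors and dampens cytokine production after T cell receptor stimulation. Double negative T cells carry an αβ T cell receptor but lack the CD4 and CD8 coreceptors, and are studied as cells with regulatory and cytotoxic activity.

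In the cells with inhibitor, adenosine lowered more genes than it raised. Transcripts of interferon-stimulated genes, of IL-2, lymphotoxins and TNF fell, as did those of several NK cell receptors and growth factors that were grouped after their values were seen, while Ramp3, Plaur, Igf1r, Cxcl3 and the IL-7 receptor gene rose. The fall of interferon-stimulated genes ran against the effect of adenosine without inhibitor, where most of the same list rose, whereas Il2 fell by a like amount in both settings.

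Libraries of the R group stood apart from each other before any comparison was made. Total counts ran from 20156082 to 22914344 per library. Levels are given as CPM, counts scaled to library size. The median over genes of the SD of log2 CPM was 0.33 in R and 0.11 in RA, and 85.5% of 12873 genes had the larger SD in R. The largest principal component held 43.4% of the variance and placed R-2 at −36.9 and R-3 at 46.8, with RA between −4.64 and 3.11. The second held 33.8% and separated the groups, with R at 19.4 to 24.8 and RA at −22.7 to −21.1. Ribosomal protein genes took 13.1%, 10.6% and 16.3% of the counts in R-1, R-2 and R-3 and 12.4%, 12.8% and 12% in RA (exact two-sided permutation p = 0.7, the smallest possible being 0.1). Mitochondrially encoded genes took 3.66%, 3.14% and 5.47% in R and 3.95%, 3.81% and 3.71% in RA (exact permutation p = 1). Results are therefore given with all 6 libraries and without R-3. The part that cell state, RNA quality or handling had in the spread of R was not tested.

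The defining T cell markers (Cd3e, Cd3d, Cd3g, Cd247, Trac, Lck, Thy1, Cd2 and Cd5) summed to 3534 to 3763 CPM in R and 3219 to 3527 CPM in RA. The coreceptor genes Cd4, Cd8a and Cd8b1 summed to 9.22 to 11.5 CPM in R and 8.99 to 9.56 CPM in RA, low beside the T cell markers. Cd4 alone was at 1.76, 1.83 and 0.827 CPM in R and 0.328, 0.524 and 0.388 CPM in RA, without overlap. Its log2 fold change of −1.83 missed the threshold with all libraries (edgeR adjusted p = 0.0695) and passed it without R-3. For Cd8a and Cd8b1 the groups overlapped. Markers of other cells were present at varied levels. Those of macrophages, monocytes and neutrophils summed to 10.3 to 15.2 CPM in R and 14.6 to 16.8 CPM in RA, and those of B cells to at most 1.77 CPM, with 2 of the 5 B cell markers at 0 in all 6 libraries. Dendritic cell markers summed to 14.9 to 18.7 CPM in R and 14.8 to 16.4 CPM in RA, and NK markers to 17.7 to 33.6 CPM and 17 to 20.6 CPM. Stromal and endothelial markers summed to 109 to 152 CPM in R and 120 to 130 CPM in RA, nearly all of it Pecam1, which leukocytes also express. The part of such cells in the results was not tested. In bulk RNA fewer cells of a type and less RNA per cell cannot be told apart.

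**Figure D1:**
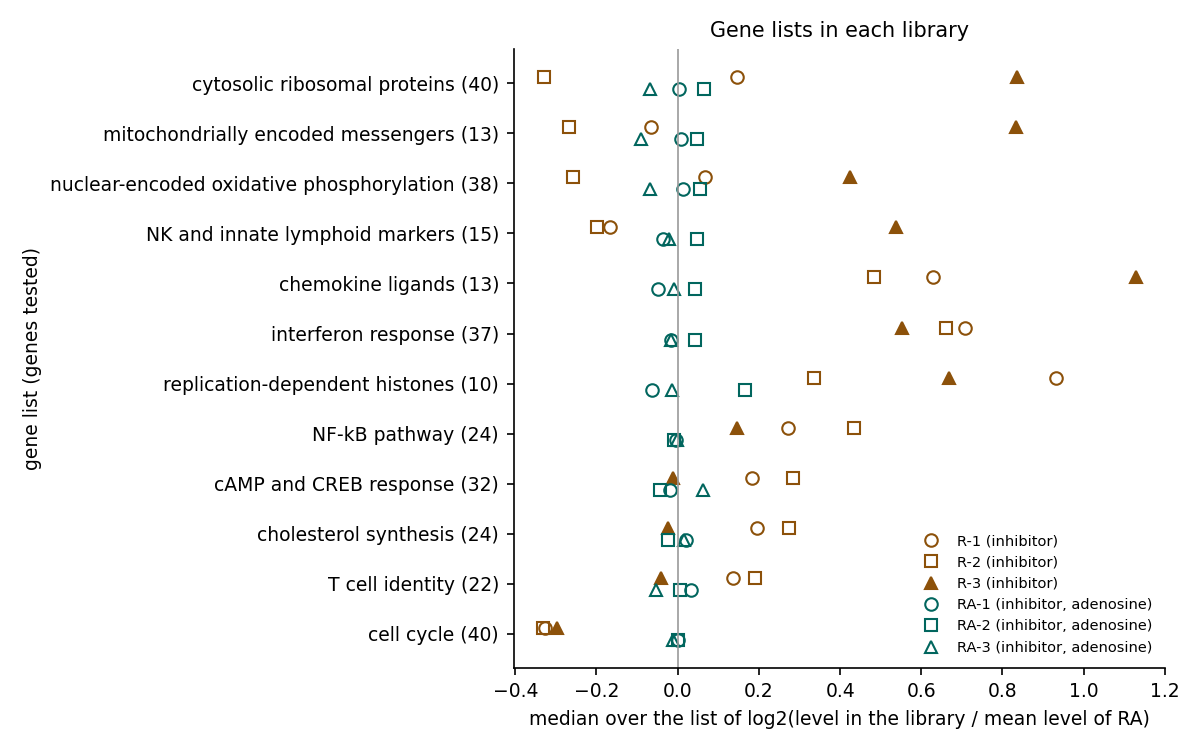
Median over the genes of 12 lists of the log2 ratio of the level in each library to the mean level of RA; brown symbols are the R libraries, with R-3 filled, green symbols the RA libraries, and the number of genes tested stands in parentheses. Ribosomal protein and mitochondrial messenger lists lie on both sides of RA in R (R-2 at −0.33 and −0.27, R-3 at 0.84 and 0.83), while interferon response genes lie above RA in every R library (0.55 to 0.71) and cell cycle genes below it (−0.33 to −0.30).

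With all 6 libraries, edgeR called 37 of 12873 genes higher (0.287%) and 110 lower (0.855%) with adenosine at an adjusted p under 0.05. In each of these 147 genes every RA library lay on the same side of every R library, and 30 of the 37 and 101 of the 110 changed at least 2-fold. Without overlap between the groups there were 1303 genes with RA above R (10.1%) and 1381 with RA below R (10.7%), called or not. Without R-3, 725 of 13181 genes were called higher (5.5%) and 994 lower (7.54%), and all 147 genes of the first fit were called the same way again. The share of higher genes among the calls was 25.2% with 6 libraries and 42.2% without R-3. In R-3 itself, 1021 of the 1719 genes called without it (59.4%) lay on the same side of RA as in R-1 and R-2. Over all genes, RA lay above R without overlap in 22.6% and below in 23% without R-3. With R-3 the shares were 10.1% and 10.7%, so many genes not called also kept their side. The 59.4% is a description and does not check the calls.

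These counts depended on single libraries. Without R-1, 9 genes were higher and 39 lower, and without R-2, 71 were higher and 149 lower. Without RA-1 there were 5 higher and 31 lower, without RA-2 7 and 38, and without RA-3 7 and 31. The common biological coefficient of variation, which sets the size of a detectable change, was 19.6% with all 6 libraries, 11.7% without R-3, 14.9% without R-2 and 21% without R-1, against 2.74% in DNT and ADO. With library sizes alone, and no correction for composition, the median log2 fold change of all genes moved from −0.04 to 0.09 and the calls to 25 higher and 48 lower.

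**Figure D2:**
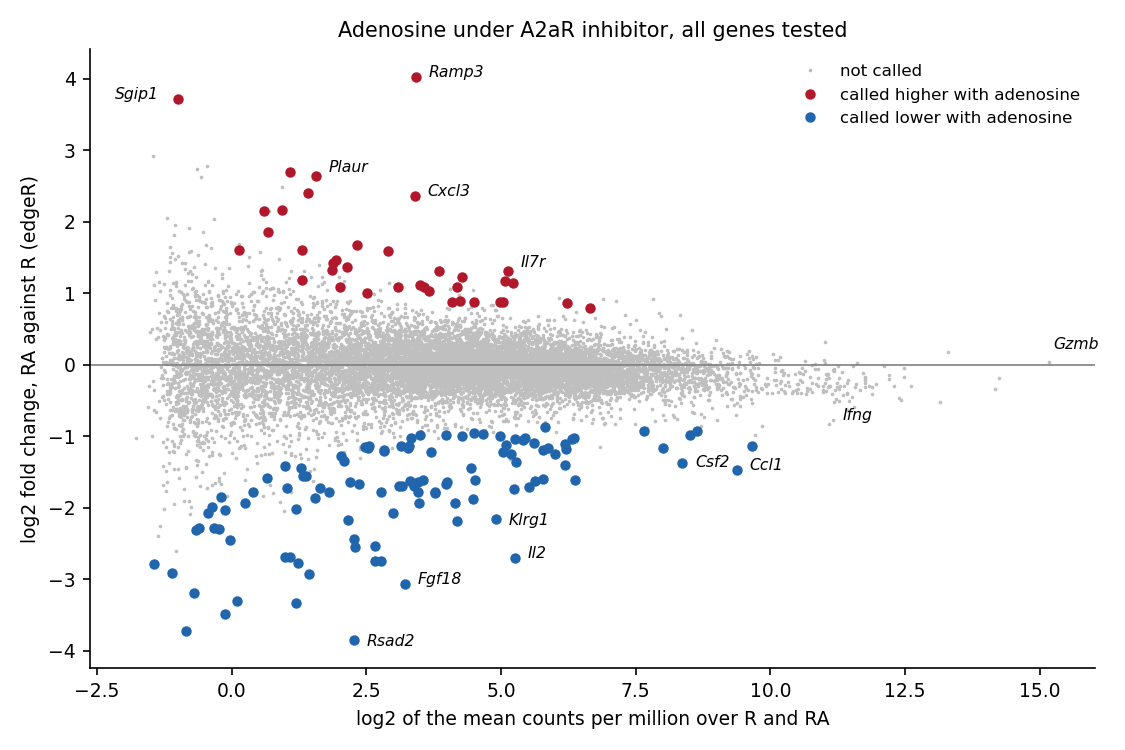
Log2 fold change of RA against R (edgeR, all 6 libraries) over the log2 of the mean CPM, 1 point per gene tested; red points were called higher, blue points lower and grey points not called. The 110 genes called lower outnumber the 37 called higher, and abundant genes such as Gzmb and Ifng lie among the grey points.

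Several cytokine genes fell. Il2, on chr3:37120523-37125959, encodes the T cell growth factor that activated T cells secrete. Its level was 66.4, 46.4 and 86.9 CPM in R-1 to R-3 and 9.37, 9.96 and 11.3 CPM in RA-1 to RA-3. The highest RA library lay far below the lowest R library. The log2 fold change was −2.70 (SE 0.24, edgeR adjusted p = 0.00124) with all libraries and −2.46 (adjusted p = 1.25e-06) without R-3. Lta, the gene for lymphotoxin alpha, was at 127, 135 and 113 CPM in R and at 45.8, 40.3 and 37.3 CPM in RA, a log2 fold change of −1.61 (SE 0.16, adjusted p = 0.00132), and −1.67 without R-3. Both genes kept their call in each fit that left out 1 library.

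Further cytokine genes fell but with calls that rested on R-1 and on each RA library. Tnf, the inflammatory cytokine gene, was at 376, 393 and 301 CPM in R and 175, 159 and 142 CPM in RA (log2 −1.17, SE 0.18, edgeR adjusted p = 0.0113). Csf2 encodes GM-CSF, which acts on myeloid cells, and was at 447, 345 and 637 CPM in R and 185, 191 and 175 CPM in RA (log2 −1.37, SE 0.23, adjusted p = 0.0222). Il10, an anti-inflammatory cytokine gene, was at 578, 423 and 570 CPM in R and 267, 292 and 265 CPM in RA (log2 −0.93, SE 0.18, adjusted p = 0.0445). In all 3 genes the groups were separate, and R-3 was the highest library for Csf2 and the lowest of R for Tnf. Ltb, the gene for lymphotoxin beta, fell from 68.1, 69.6 and 62.9 CPM to 35.4, 32.3 and 26.4 CPM (log2 −1.09, SE 0.17, adjusted p = 0.0112). None of these 4 calls held without R-1 or without any 1 RA library (adjusted p between 0.0705 and 0.31), whereas without R-3 their log2 fold changes were −1.28, −1.11, −0.87 and −1.14, with adjusted p of at most 0.00128.

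Il17f, a cytokine gene of type 17 helper cells, was the member of the cytokine list that rose: 26.5, 21.1 and 22.3 CPM in R and 51.7, 52.6 and 50.3 CPM in RA, a log2 fold change of 1.15 (SE 0.16, edgeR adjusted p = 0.00739) and 1.12 without R-3. Its call was lost without any 1 RA library (adjusted p 0.0756 to 0.0824). Of the 29 tested cytokine genes, 1 rose and 6 fell with all libraries, and 5 rose and 13 fell without R-3. Over all genes tested 0.287% rose and 0.855% fell with all libraries, and 5.5% and 7.54% without R-3. Without R-1 or any 1 RA library 2 fell. The list's median log2 fold change was −0.27, beside −0.04 over all genes tested.

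Ifng was the most abundant cytokine gene in the plot of levels by library, and its groups overlapped. It encodes interferon gamma, the effector cytokine of cytotoxic and type 1 helper cells. Its level was 2237, 1797 and 4209 CPM in R and 1853, 1940 and 1976 CPM in RA, with R-3 near the sum of the other pair of R libraries. The log2 fold change was −0.52 (SE 0.30, edgeR adjusted p = 0.568), and −0.07 (adjusted p = 0.758) without R-3. Il5 and Il22, genes of a type 2 and a mucosal cytokine, had log2 fold changes of 0.64 and 0.84 that missed the threshold with all libraries (adjusted p 0.108 and 0.0677) and passed it without R-3 (adjusted p 0.0147 and 0.00263). Il6 and Il23a lay outside the cytokine list and were picked after their values were seen. Il6 fell from 48.4, 37.7 and 51.9 CPM to 19.3, 19.97 and 19.9 CPM, and Il23a, which encodes a subunit of IL-23, from 111, 87.3 and 119 CPM to 41.1, 42.0 and 37.4 CPM (adjusted p 0.00818 and 0.00402). Without R-3 their adjusted p were 0.000182 and 3.34e-05. Il6 was not called without R-1 or any 1 RA library (0.0767 to 0.091), and Il23a without RA-1 or RA-3 (0.0546 and 0.0713).

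Some chemokine ligand genes fell, while Cxcl3, which is not in the list of these genes, rose and is described with the rises. Ccl1, the ligand of CCR8, on chr11:82176657-82305690, was at 946, 865 and 1136 CPM in R and 359, 342 and 361 CPM in RA (log2 −1.47, SE 0.18, edgeR adjusted p = 0.00406, and −1.36 without R-3). Cxcl10, an interferon-inducible ligand of CXCR3, was at 13.0, 9.45 and 9.39 CPM in R and 2.53, 3.89 and 2.84 CPM in RA (log2 −1.78, SE 0.24, adjusted p = 0.0066). Cxcl16, the ligand of CXCR6, was lower in abundance, at 2.72 to 4.37 CPM in R and 1.03 to 1.49 CPM in RA (adjusted p = 0.0313). In all 3 genes the groups did not overlap. Cxcl10 was not called without R-1, RA-1 or RA-3 (adjusted p 0.053 to 0.0824), Ccl1 without any 1 RA library (0.0632 to 0.0717), and Cxcl16 without R-1 or any 1 RA library (0.111 to 0.199).

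In all, 3 of 13 chemokine ligand genes fell with all libraries and 7 without R-3, beside 0.855% and 7.54% of all genes. RA lay below R without overlap in 11 of the 13, beside 10.7% of all genes, and the list's median was −0.82. Without R-1 or RA-2 only 1 of the calls remained and without RA-1 or RA-3 none did, where edgeR at an unadjusted p under 0.05 had 8 of 13 lower with all libraries and DESeq2 called 7. Ccl3, Ccl4 and Ccl5, inflammatory chemokine genes, had log2 fold changes of −0.41, −0.82 and −0.58 with adjusted p of 0.522, 0.105 and 0.113. Near-identical Ccl genes can share reads, so single values of that family are uncertain.

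**Figure D3:**
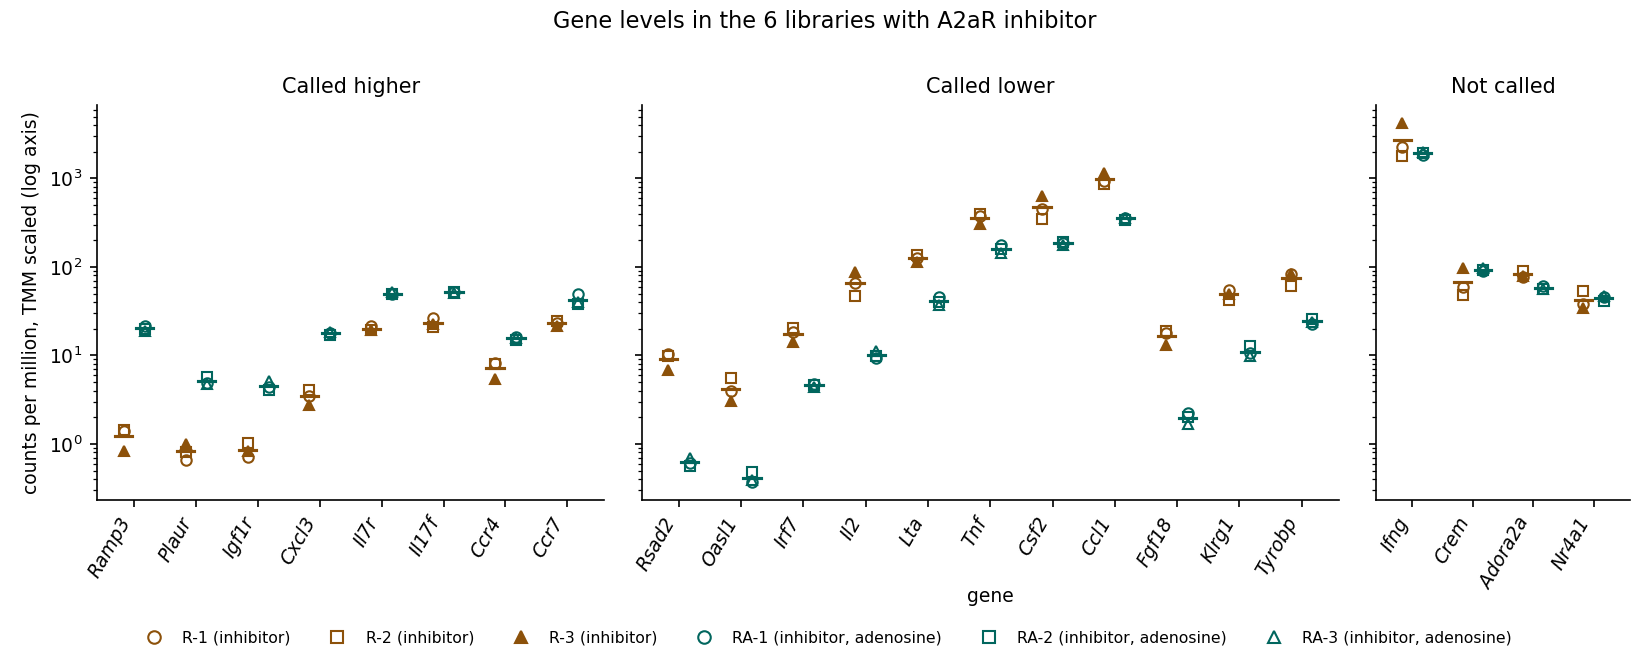
Level of 23 genes in each of the 6 libraries as TMM-scaled CPM on a log axis, R in brown with R-3 filled and RA in green, with the group mean as a bar; panels hold genes called higher, called lower and not called. RA libraries sit close together for most genes, and for Ifng and Crem R-3 lies above R-1 and R-2.

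Interferon-stimulated genes made up the largest set of falls. They are turned on by interferons and by IRF family factors, and many encode antiviral proteins. Rsad2 encodes viperin, an antiviral enzyme, and lies on chr12:26442746-26456452. It was at 10.5, 9.74 and 6.79 CPM in R and 0.609, 0.568 and 0.689 CPM in RA. The groups were far apart, and 3 counts correspond to 0.131 to 0.149 CPM in these libraries before TMM scaling. The log2 fold change was −3.85 (SE 0.27, edgeR adjusted p = 0.000346) and −4.01 (adjusted p = 2.21e-07) without R-3, the largest fall among the genes named by the fixed rule.

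Oasl1, a relative of the oligoadenylate synthetases, was at 3.91, 5.56 and 3.07 CPM in R and 0.375, 0.481 and 0.388 CPM in RA (log2 −3.33, SE 0.33, edgeR adjusted p = 0.00132). Rtp4, an interferon-inducible regulator of the antiviral response, was at 12.7, 8.97 and 11.5 CPM in R and 1.59, 2.18 and 1.16 CPM in RA (log2 −2.74, SE 0.27, adjusted p = 0.00132). Irf7, the factor that amplifies interferon alpha production, was at 18.5, 20.3 and 14.2 CPM in R and 4.78, 4.68 and 4.43 CPM in RA (log2 −1.93, SE 0.19, adjusted p = 0.00132). No library of one group reached the other in any of them, and all 3 and Rsad2 kept their calls in each fit that left out 1 library. Without R-3 the log2 fold changes of Oasl1, Rtp4 and Irf7 were −3.51, −2.71 and −2.07. Isg15, a ubiquitin-like modifier, fell from 24.3 ± 4.57 to 7.82 ± 0.225 CPM (mean ± SD, n = 3), and Usp18, which removes ISG15 from proteins, from 40.4, 35.5 and 28.4 CPM to 11.2, 11.6 and 11.2 CPM (log2 −1.63 and −1.62). Both genes were tightly grouped in RA and were called in each fit that left out 1 library. Usp18 was picked after its values were seen.

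Of 37 tested genes of the interferon list 15 fell with all libraries, beside 0.855% of all genes, and 21 without R-3, beside 7.54%. RA lay below R without overlap in 20 of them, beside 10.7% of all genes. The list's median log2 fold change was −0.58, and −0.59 without R-3. The count was 7 without R-1, 7 without RA-1, 8 without RA-2 and 7 without RA-3, 18 by DESeq2 and 11 with library sizes alone. The 15 genes were Rsad2, Oasl1, Ifi44, Rtp4, Irf7, Ifit1, Xaf1, Oas1a, Isg15, Oas3, Usp18, Oasl2, Dhx58, Isg20 and Trim30a. Oasl1 overlaps another annotated gene, and the Oas and Trim30 families hold near-identical copies, so their counts are less certain.

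Some members of the list moved little. The interferon-inducible GTPase genes Gbp2 to Gbp7, Igtp, Iigp1 and Ifi47, which are induced mainly by interferon gamma, had log2 fold changes between −0.30 and 0.30, with a median of −0.06, and edgeR called none of the 9, with none at an unadjusted p under 0.05 and none called by DESeq2. Grouping these 9 genes was done after their values were seen. Gbp2 was at 57.4, 53 and 45.5 CPM in R and 48.3, 48.6 and 46.9 CPM in RA. Mx1, an antiviral GTPase gene of the type I response, was at 27.2, 22.7 and 21.2 CPM in R and 20.1, 22.1 and 21.2 CPM in RA (adjusted p = 0.79). Its groups overlapped, as did those of Gbp2.

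The Ifi200 family, a cluster of related genes on chromosome 1 that encode nuclear DNA sensors and regulators, fell with the interferon list. This family too was assembled after the values were seen, 13 genes of it were in the table and 10 passed the filter on low counts. Of these, 8 fell with all libraries, beside 0.855% of all genes, and 9 without R-3, beside 7.54%, and their median log2 fold change was −1.71. Ifi204 was at 10.6, 6.73 and 7.86 CPM in R and 1.26, 1.53 and 1.46 CPM in RA (log2 −2.56, SE 0.24, edgeR adjusted p = 0.00124). Ifi208 was at 9.03, 7.51 and 5.55 CPM in R and 1.31, 1.79 and 1.77 CPM in RA (log2 −2.18, SE 0.25, adjusted p = 0.00304). Mndal, more abundant, fell from 74.4, 55.5 and 82.1 CPM to 20.8, 19.8 and 23.9 CPM (log2 −1.72), with the groups well apart. Aim2, the inflammasome sensor of the family, had a log2 fold change of −0.18 and was not called. Reads of these near-identical genes could be split between copies by the counting.

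Promoters of the genes that fell held the interferon-stimulated response element (ISRE) more often than promoters at large. The motif was searched on both strands as GAAA, any 2 bases and GAAA again, in 250 bases before to 50 bases after the RefSeq start sites of GRCm38.p6, and it was chosen after the values were seen. It was present for 15 of 80 genes called lower that have an entry (18.8%), 1 of 32 called higher (3.12%), 362 of 9262 genes tested (3.91%) and 17 of 28 tested genes of the interferon list (60.7%). Among the 15, Ifi203, Ifi206, Ifi208, Ifi211, Ifi214 and Mndal belong to the Ifi200 family, and Trim30a and Trim30d are related copies. Promoters of such copies resemble each other, so the 15 are not independent cases. Rsad2, Isg15, Ifit1, Oas1a, Oas3 and Trim30a of the 15 are in the interferon list. Of the genes called lower without R-3, 50 of 740 held it (6.76%). The cyclic AMP response element TGACGTCA was present for 3.75% of the genes called lower, none of the 32 called higher and 3.77% of all tested, and its shorter core TGACG, which the full element contains, for 23.8%, 25% and 36.4%. A match is a description of letters, not of a bound site. The promoters of 4 falling genes are printed to show the element in 3 genes of the interferon list and 1 of the Ifi200 family, with ISRE matches and TGACG matches on either strand in capitals. Rsad2 (chr12:26456403-26456702, minus strand) has 1 ISRE match at −120 from the start. Isg15 (chr4:156200769-156201068, minus strand) has 3 overlapping ones, Ifit1 (chr19:34640639-34640938, plus strand) has 2, and Ifi208 (chr1:173673415-173673714, plus strand) has 1 at −58.
Rsad2: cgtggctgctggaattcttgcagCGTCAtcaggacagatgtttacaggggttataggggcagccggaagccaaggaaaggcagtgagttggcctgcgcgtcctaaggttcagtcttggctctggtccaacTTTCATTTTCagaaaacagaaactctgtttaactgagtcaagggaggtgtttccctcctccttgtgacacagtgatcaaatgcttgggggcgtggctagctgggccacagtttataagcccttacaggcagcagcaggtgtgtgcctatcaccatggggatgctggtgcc
Isg15: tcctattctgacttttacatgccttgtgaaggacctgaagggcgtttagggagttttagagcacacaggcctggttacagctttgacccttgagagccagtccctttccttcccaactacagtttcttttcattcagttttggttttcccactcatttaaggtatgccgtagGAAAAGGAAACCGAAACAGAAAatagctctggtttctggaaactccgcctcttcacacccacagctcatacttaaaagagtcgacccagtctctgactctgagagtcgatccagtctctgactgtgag
Ifit1: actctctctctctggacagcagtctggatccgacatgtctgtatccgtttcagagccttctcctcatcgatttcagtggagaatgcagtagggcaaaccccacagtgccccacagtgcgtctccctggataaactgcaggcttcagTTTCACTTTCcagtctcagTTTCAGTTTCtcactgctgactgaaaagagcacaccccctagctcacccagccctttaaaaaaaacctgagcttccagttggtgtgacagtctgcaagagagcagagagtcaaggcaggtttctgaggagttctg
Ifi208: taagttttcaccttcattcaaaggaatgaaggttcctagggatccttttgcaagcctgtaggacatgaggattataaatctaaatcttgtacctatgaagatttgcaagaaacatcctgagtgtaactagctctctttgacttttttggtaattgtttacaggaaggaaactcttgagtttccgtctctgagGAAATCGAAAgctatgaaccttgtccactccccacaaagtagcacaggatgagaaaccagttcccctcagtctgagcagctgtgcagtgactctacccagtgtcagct

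Among the rises Ramp3 stood first. It encodes a partner protein of the calcitonin receptor-like receptor that sets its affinity for adrenomedullin and calcitonin gene-related peptide, and lies on chr11:6658521-6677475, overlapping a pseudogene model on the other strand. Its level was 1.40, 1.42 and 0.827 CPM in R and 21.7, 19.8 and 18.9 CPM in RA. The lowest RA library was more than 10 times the highest R library, a log2 fold change of 4.02 (SE 0.24, edgeR adjusted p = 0.00016) and 3.83 (adjusted p = 2.21e-07) without R-3. Plaur, the gene of the urokinase receptor, on chr7:24462484-24475968, was at 0.652, 0.811 and 1.0 CPM in R and 4.87, 5.77 and 4.74 CPM in RA (log2 2.64, SE 0.25, adjusted p = 0.00124). Cxcl3, a neutrophil chemokine gene, was at 3.51, 4.02 and 2.78 CPM in R and 18, 17 and 18.3 CPM in RA (log2 2.36, SE 0.19, adjusted p = 0.000764). Without R-3 the log2 fold changes of Plaur and Cxcl3 were 2.78 and 2.23, and all 3 genes kept the call in each fit that left out 1 library.

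Igf1r and Il7r encode receptors for growth and survival signals. Igf1r, the insulin-like growth factor 1 receptor gene, was at 0.702, 1.01 and 0.827 CPM in R and 4.4, 4.02 and 5.17 CPM in RA (log2 2.40, SE 0.25, edgeR adjusted p = 0.00175, and 2.37 without R-3). Il7r was at 21.5, 19.2 and 19.4 CPM in R and 48.9, 49.0 and 51.4 CPM in RA (log2 1.31, SE 0.15, adjusted p = 0.00255, and 1.29 without R-3). Both groups were tight for Il7r, R-3 included, and both genes kept their calls in each fit that left out 1 library. Sgip1, an endocytic adaptor gene, was near the detection limit in R (0.0406 to 0.118 CPM) and at 0.609, 1.44 and 0.732 CPM in RA. Its log2 fold change was 3.72 (SE 0.63, adjusted p = 0.0237), and the call was lost without any library but R-3 (adjusted p 0.0565 to 0.167).

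Homing and chemokine receptor genes were among the smaller rises. Ccr7, which guides T cells into lymph nodes, was at 23.3, 24.5 and 21.5 CPM in R and 49.3, 37.8 and 40.4 CPM in RA (log2 0.88, SE 0.17, edgeR adjusted p = 0.0386). Ccr4, a receptor for CCL17 and CCL22, was at 8.13, 7.95 and 5.38 CPM in R and 15.9, 14.9 and 15.8 CPM in RA (log2 1.11, SE 0.20, adjusted p = 0.03). Satb1, a chromatin organiser of T cells, had a log2 fold change of 0.91 and groups that did not overlap, with an adjusted p of 0.0766, and passed without R-3 (adjusted p = 0.00201). Tigit, a coinhibitory receptor gene, rose from 71.3, 81.7 and 67.9 CPM to 126, 124 and 134 CPM (log2 0.79, SE 0.15, adjusted p = 0.0432), while Ctla4, at 42.2 to 52.4 CPM in R and 68.5 to 71.4 CPM in RA, missed the threshold with all libraries (adjusted p = 0.142) and passed it without R-3 (0.0179). The calls for Ccr7, Ccr4 and Tigit were lost without R-1 or any 1 RA library (adjusted p 0.109 to 0.314). Klf2, a quiescence factor gene that drives some homing receptors, had a log2 fold change of −0.51 (adjusted p = 0.426), and −0.67 (adjusted p = 0.0487) without R-3.

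Of 12 tested chemokine receptor genes 2 rose with all libraries and 4 without R-3, of 24 quiescence and homing genes 2 rose with all libraries, and of 27 coinhibitory receptor genes 1. Without R-3 the homing list had 4 higher and 5 lower, and the coinhibitory list 4 and 2, beside 5.5% higher and 7.54% lower over all genes, so that the 2 of 27 lower are near the share of all genes. With all libraries 0.287% of all genes rose.

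The remaining large rises had varied functions. Tg (thyroglobulin) had a log2 fold change of 1.68 (SE 0.25, edgeR adjusted p = 0.0104). Slc1a2, a glutamate transporter gene, went from 4.27, 3.12 and 3.78 CPM to 12.4, 11.7 and 9.56 CPM (log2 1.59, SE 0.20, adjusted p = 0.00496). Nebl, a nebulin relative, Tbc1d4, a Rab GTPase-activating protein of glucose transporter traffic, and Gldc, of the glycine cleavage system, had log2 fold changes of 1.47, 1.42 and 1.33. In these 5 genes RA was at least 4.92 CPM in every library and R at most 4.27 CPM. Cnr2, the cannabinoid receptor gene of immune cells, Slc15a3, a lysosomal peptide transporter gene, and Hc, which encodes complement C5, had log2 fold changes of 1.37, 1.32 and 1.23. Tg, Nebl, Tbc1d4, Gldc, Cnr2, Slc15a3 and Hc were not called without R-1 or any 1 RA library (adjusted p 0.053 to 0.275), and Slc1a2 was not called without RA-1 (adjusted p = 0.0565). Tg, Slc15a3 and Hc each overlap another annotated gene. Without R-3 all 8 were called, with log2 fold changes from 1.07 for Slc15a3 to 1.94 for Tg.

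Calca and Pkib rose too, and were picked after their values were seen. Calca encodes calcitonin and calcitonin gene-related peptide, and was at 1.15, 1.14 and 1.42 CPM in R and 3.65, 4.11 and 3.44 CPM in RA (log2 1.60, SE 0.23, edgeR adjusted p = 0.00957). Pkib encodes an inhibitor of protein kinase A, and was at 0.903, 0.730 and 0.414 CPM in R and 3.04, 3.02 and 3.32 CPM in RA (log2 2.16, SE 0.30, adjusted p = 0.00734). For both, every RA library was above 3 CPM and every R library below 1.5 CPM. Without R-3 the log2 fold changes were 1.70 and 1.94. Calca was not called without R-1 or any 1 RA library (adjusted p 0.0741 to 0.0872), and Pkib without RA-1 or RA-3 (0.0565 and 0.0753).

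Some genes of NK cell receptors and of signalling adaptors fell. Klrg1, an inhibitory lectin-like receptor gene of mature effector cells, on chr6:122270596-122282882, was at 55.1, 42.6 and 49.4 CPM in R and 10.6, 12.8 and 9.73 CPM in RA (log2 −2.15, SE 0.18, edgeR adjusted p = 0.00077). Sh2d1b2, an adaptor of SLAM family receptors also known as ERT, was at 13.8, 11.4 and 10.8 CPM in R and 1.83, 1.88 and 1.64 CPM in RA (log2 −2.75, SE 0.20, adjusted p = 0.000346). Tyrobp, the adaptor DAP12, was at 82.1, 60.2 and 82.2 CPM in R and 22.8, 26.0 and 23.8 CPM in RA (log2 −1.63, SE 0.18, adjusted p = 0.00195). In each gene every RA library lay below every R library. Ncr1, the NKp46 receptor gene, was at 5.17, 3.57 and 5.61 CPM in R and 0.515, 0.655 and 0.689 CPM in RA (log2 −2.93, SE 0.29, adjusted p = 0.00132), and all 4 calls held in each fit that left out 1 library, with log2 fold changes of −2.15, −2.82, −1.56 and −2.79 without R-3.

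In a group of 11 such genes, put together after their values were seen, 6 fell, beside 0.855% of all genes: Sh2d1b2, Ncr1, Klrg1, Fcgr3, Tyrobp and Fcrl6. The median log2 fold change was −1.13, and without R-3 8 fell and 1 rose, where 7.54% and 5.5% of all genes did. Fcrl6, a receptor of the Fc receptor-like family, was not called without R-1 or any 1 RA library (adjusted p 0.0671 to 0.265), while the other 5 were called in each such fit. Fcer1g, the most abundant adaptor, was at 326, 254 and 379 CPM in R and 203, 197 and 187 CPM in RA, which missed the threshold (adjusted p = 0.117). Ncr1 and Klrb1c, the defining NK markers, summed to 22.5, 17.7 and 33.6 CPM in R and 17.8, 20.6 and 17 CPM in RA, so that the sums overlapped while Ncr1 did not. Of the 15 tested genes of the NK and innate lymphoid marker list, 2 fell, beside 0.855% of all genes. Without R-3 3 of them rose and 4 fell, beside 5.5% and 7.54%. The list's median log2 fold change was −0.06 with all libraries and 0.18 without R-3, where 10 of the 15 were above 0. Klri2, of this list, had a log2 fold change of 1.22 (edgeR adjusted p = 0.188) and passed without R-3. Klrk1, of the group of 11, had 0.11 (adjusted p = 0.952) and also passed without R-3 (0.00368). The part of NK-like cells in these falls was not tested.

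Granule genes differed in direction. Klrg1 and Gzmf were the members of the 27 cytotoxic effector genes that fell, beside 0.855% of all genes. Without R-3 5 rose and 5 fell, beside 5.5% and 7.54% of all genes. Gzmf, a granzyme gene, was at 286, 228 and 281 CPM in R and 144, 143 and 131 CPM in RA (log2 −0.93, SE 0.16, edgeR adjusted p = 0.0283, lost without R-1 or any 1 RA library). Gzmb, the granzyme that triggers caspases, took 3.35%, 2.74% and 4.06% of all counts in R and 3.94%, 4.04% and 3.76% in RA, with a log2 fold change of 0.04 (adjusted p = 0.977) and 0.33 (adjusted p = 0.223) without R-3. Prf1, the pore-forming perforin gene, was at 3647, 4398 and 2727 CPM in R and 2509, 2313 and 2356 CPM in RA, and missed the threshold with all libraries (adjusted p = 0.303) and passed it without R-3 (0.0036). Granzyme genes of the same cluster are near-identical, and their reads could be split.

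Ctsg, Cma1 and Prss34, protease genes best known from neutrophils and mast cells, were lower with adenosine. They were grouped after their values were seen, from 6 tested of 14 such genes in the table. Over all genes tested 0.855% fell. Ctsg was at 27.7, 21.8 and 34.6 CPM in R and 7.40, 7.78 and 6.85 CPM in RA (log2 −1.93, SE 0.21, edgeR adjusted p = 0.00193). Cma1 was at 16.8, 15.1 and 19.6 CPM in R and 4.08, 5.51 and 5.38 CPM in RA (log2 −1.78, SE 0.20, adjusted p = 0.00225). Both were called in each fit that left out 1 library, and Prss34 in none of them but that without R-3 (adjusted p 0.0652 to 0.209 in the others). The libraries with higher ribosomal protein shares were also those with higher Ctsg and Cma1 within R. The mast cell genes Cpa3 and Mcpt8 were not called with all libraries (log2 −0.66 and −0.67). Without R-3 4 of 7 tested genes of the group fell, beside 7.54% of all genes, with Mcpt8 among them (edgeR adjusted p = 0.0399). The summed markers of macrophages, monocytes and neutrophils, given above, overlapped between the groups. Most of that sum was Cd68, at 7.44 to 11.3 CPM in R and 11.5 to 13.4 CPM in RA. The part of neutrophils and mast cells in these falls was not tested.

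Genes of secreted growth factors and of a Notch ligand fell. Fgf18, a fibroblast growth factor gene on chr11:33117430-33147400, was at 17.8, 18.7 and 13.2 CPM in R and 2.25, 2.01 and 1.68 CPM in RA (log2 −3.06, SE 0.22, edgeR adjusted p = 0.000346, and −3.21 without R-3). Pdgfa and Pdgfb, the chains of platelet-derived growth factor, went from 29.2, 37.8 and 28.5 CPM to 12.1, 10.5 and 12.6 CPM and from 91.1, 122 and 95.1 CPM to 46.5, 45.6 and 43.7 CPM (adjusted p 0.00477 and 0.00837). Wnt7b, Vegfc and the Notch ligand gene Jag1 fell from at most 2.60 CPM in R, with log2 fold changes of −3.31, −1.78 and −2.08. These 6 came from 13 tested of 37 growth factor genes that were grouped after their values were seen. Over all genes tested 0.855% fell. The median of the 13 was −0.83, and without R-3 7 fell and 1 rose, beside 7.54% and 5.5% of all genes. Fgf18 and Wnt7b were called in each fit that left out 1 library. Pdgfa and Pdgfb were not called without any 1 RA library (adjusted p 0.0565 to 0.115), and Vegfc and Jag1 kept the call only without R-3 (0.0692 to 0.278 in the other such fits). Fgf2 had a log2 fold change of 2.04, with 0.177 to 0.552 CPM in R and 1.18 to 1.41 CPM in RA (adjusted p = 0.0608).

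The other largest falls were of Tmem119, Timp2, Capn5 and Cd70. Cd70, the ligand of the costimulatory receptor CD27, was at 14.3, 13.8 and 10.9 CPM in R and 3.28, 3.41 and 2.54 CPM in RA (log2 −2.08, SE 0.21, edgeR adjusted p = 0.00132). Timp2, an inhibitor of matrix metalloproteinases, was at 8.43, 8.60 and 7.33 CPM in R and 1.55, 1.35 and 1.59 CPM in RA (log2 −2.44, SE 0.20, adjusted p = 0.000768). Capn5, a calpain protease gene, was at 26.2, 37.1 and 26.0 CPM in R and 7.21, 6.6 and 5.77 CPM in RA (log2 −2.19, SE 0.21, adjusted p = 0.00124). Tmem119, a membrane protein gene used as a marker of microglia, went from 10.6, 13.4 and 8.27 CPM to 1.97, 1.66 and 1.94 CPM (log2 −2.54). All 4 kept their calls in each fit that left out 1 library, and their log2 fold changes without R-3 ran from −2.70 for Tmem119 to −2.19 for Cd70.

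Genes known to respond to cyclic AMP and CREB moved in both directions and mostly missed the threshold. Crem, which encodes a CREB family factor with its own inducible repressor form, was at 59.4, 48.4 and 95.9 CPM in R and 89.6, 93.2 and 97.2 CPM in RA. R-3 lay within RA and the other R libraries below it. The log2 fold change was 0.46 (SE 0.24, edgeR adjusted p = 0.489), and 0.79 (adjusted p = 0.00146) without R-3. Pde4b, a phosphodiesterase gene that degrades cyclic AMP, was at 20.4, 19.8 and 15 CPM in R and 29.6, 28.2 and 30.9 CPM in RA (log2 0.68, adjusted p = 0.109, and 0.0142 without R-3). Atf3, a stress-induced factor gene of the ATF family, fell from 125, 111 and 93.1 CPM to 54.4, 55.3 and 52.5 CPM (log2 −1.02, SE 0.17, adjusted p = 0.0169, lost without R-1 or any 1 RA library).

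Immediate early genes of T cell receptor signalling were level or lower. Nr4a1, an orphan nuclear receptor gene, was at 38.4, 52.9 and 34.7 CPM in R and 45.5, 40.6 and 46.7 CPM in RA (edgeR adjusted p = 0.939). Nr4a2 and Egr1 had log2 fold changes of −0.86 and −0.82, with groups that did not overlap (adjusted p 0.119 and 0.145, and 0.000854 and 0.00965 without R-3). Fos was near 3 CPM in every library, with a log2 fold change of −0.10. Myc, the growth regulator, was at 229, 376 and 214 CPM in R and 144, 139 and 159 CPM in RA (adjusted p 0.111, and 0.00246 without R-3), and Irf4 had a log2 fold change of 0.08 (adjusted p = 0.933). Of the 32 tested genes of the cyclic AMP list 1 fell with all libraries, and without R-3 2 rose and 9 fell. Over all genes 0.855% fell with all libraries, and 5.5% rose and 7.54% fell without R-3, so that 2 of 32 higher is near the share of all genes. The list's median was −0.11.

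Adenosine receptor genes differed in level. Adora2a, the gene of the receptor that the inhibitor targets, was at 77.4, 90.8 and 79.1 CPM in R and 61.5, 56.2 and 56.1 CPM in RA. The groups did not overlap, and the log2 fold change of −0.51 (SE 0.15) missed the threshold with all libraries (edgeR adjusted p = 0.171) and passed without R-3 (−0.54, adjusted p = 0.0117). Adora2b was at 22.7, 23.7 and 16.8 CPM in R and 22.5, 17.3 and 17.6 CPM in RA (adjusted p = 0.859), and Adora3 between 0.984 and 2.39 CPM in the 6 libraries (adjusted p = 0.454). Adora1 had no count in any of the 6, which allows up to 3 counts, or 0.131 to 0.149 CPM before TMM scaling, in a library. A transcript level does not measure receptor on the cell or the degree to which the inhibitor blocked it, which was not tested.

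Of the genes that make or clear adenosine, those of both ectoenzymes were not called. Entpd1, which encodes CD39, was at 72.1, 63.9 and 58.4 CPM in R and 85.8, 76.9 and 74.3 CPM in RA (log2 0.29, edgeR adjusted p = 0.525). Nt5e, which encodes CD73, was at 13.7, 11.9 and 16.7 CPM in R and 15.5, 16.2 and 14.2 CPM in RA (log2 0.12, adjusted p = 0.883), and its groups overlapped. Slc29a2, an equilibrative nucleoside transporter gene, had a log2 fold change of −0.95 (adjusted p = 0.0766, and 0.0141 without R-3). Art2b, an ecto-ADP-ribosyltransferase that gates P2X7, rose from 1.40, 1.42 and 1.71 CPM to 3.0, 3.93 and 3.36 CPM (log2 1.19, SE 0.24, adjusted p = 0.0468). Its call was lost without any library but R-3 (adjusted p 0.0686 to 0.296). Of the 21 tested genes of this list 1 rose, beside 0.287% of all genes. Without R-3 4 of 22 rose and 4 fell, beside 5.5% and 7.54% of all genes.

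NF-kB pathway and histone genes leaned lower. Nfkbid, a nuclear IkB protein gene, fell from 63.2, 83 and 73.0 CPM to 40.9, 40.9 and 38.4 CPM (log2 −0.87, SE 0.16, edgeR adjusted p = 0.0342). Relb and Nfkb2, the noncanonical NF-kB subunits, had log2 fold changes of −0.75 and −0.62 without overlap and adjusted p of 0.0559 and 0.145, and passed without R-3. Of 24 NF-kB pathway genes 2 fell, Nfkbid and Tnfaip2, and 11 fell without R-3, beside 0.855% and 7.54% of all genes. Hist1h1c, a linker histone gene, fell from 66.6, 59.1 and 41.0 CPM to 21.5, 20.5 and 22.9 CPM (log2 −1.36, SE 0.20, adjusted p = 0.0104). It was 1 of 2 histone genes called among 10 tested, with Hist1h2bc, and without R-3 5 fell. The calls for Nfkbid, Tnfaip2, Hist1h1c and Hist1h2bc were lost without R-1 or any 1 RA library (adjusted p 0.0837 to 0.281), and Tnfaip2 also without R-2 (0.0561).

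Cell cycle genes leaned higher by a small amount. Cdc6, which licenses replication origins, rose from 22.3, 19.5 and 24.7 CPM to 41.1, 43.1 and 38.4 CPM (log2 0.88, SE 0.16, edgeR adjusted p = 0.0328), a call lost without R-1 or any 1 RA library. It was the single call among 40 genes, beside 0.287% higher of all genes, and 17 of the 40 were higher at an unadjusted p under 0.05. Without R-3 14 rose and 1 fell, beside 5.5% and 7.54% of all genes. RA lay above R without overlap in 20 of the 40, beside 10.1% of all genes, and the median was 0.33. Mcm5, a subunit of the replicative helicase, was at 74.7, 84.3 and 79.0 CPM in R and 109, 101 and 101 CPM in RA (adjusted p = 0.301, and 0.0468 without R-3). Ccne2, the cyclin E2 gene, shows what 1 library did: it was at 9.43 and 8.36 CPM in R-1 and R-2 but at 45.4 CPM in R-3, with 25.5, 30.1 and 30.4 CPM in RA. Its log2 fold change was 0.45 (SE 0.55, adjusted p = 0.833) with R-3 and 1.69 (adjusted p = 1.53e-05) without it.

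Ccne2 also led the genes with the largest spread among R libraries, all of them highest in R-3. Rfc4, a clamp loader subunit of DNA replication, was at 14.5, 10.9 and 39.8 CPM in R-1 to R-3. Klra1, a Ly49 receptor gene, was at 17.5, 12.2 and 45.1 CPM. Xcl1, the chemokine that attracts cross-presenting dendritic cells, was at 825, 595 and 1942 CPM. Ccl9 and mt-Atp6 followed the same order in that R-3 was near 3 times R-2 for both. In RA these genes varied little apart from mt-Atp6, at 28.3, 48.8 and 31.2 CPM. The 40 ribosomal protein genes had a median log2 fold change of −0.29 with all libraries and 0.08 without R-3, and the 13 mitochondrially encoded messengers −0.29 and 0.13, so both medians changed sign with that library. In neither list did edgeR call a gene, with none of the 40 and 1 of the 13 (higher) at an unadjusted p under 0.05 and none by DESeq2.

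The remaining lists held few calls with all libraries. Il7r, described above, was 1 of 19 genes of the IL-2 and STAT5 list, of which 6 fell without R-3. Atf3 was 1 of 15 AP-1 genes and Nfkbid 1 of 30 activation and costimulation genes, with 6 and 8 lower without R-3. Over all genes 0.287% rose and 0.855% fell with all libraries, and 7.54% fell without R-3. In the activation list Cd69, an early activation marker, was at 379, 286 and 490 CPM in R and 222, 233 and 231 CPM in RA (log2 −0.75, edgeR adjusted p = 0.145), and Icos, a costimulatory receptor gene, at 67.1, 55.5 and 67.2 CPM and 111, 104 and 101 CPM (log2 0.74, adjusted p = 0.0608). Both were without overlap and passed without R-3 (adjusted p 0.0147 and 0.00155). Of 24 cholesterol synthesis genes and 28 glycolysis genes edgeR called none with all libraries, with 5 and 4 lower at an unadjusted p under 0.05 and none by DESeq2. Without R-3 8 of each fell, beside 7.54% of all genes.

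The effect of adenosine with inhibitor was set beside its effect without inhibitor, measured in DNT and ADO. The tables of the 2 sets were deposited separately, and inhibitor and set cannot be told apart in levels. Without inhibitor 50.2% of genes were called in either direction. Across 12484 genes tested in both, the log2 fold changes had a Pearson r of 0.361, and 0.311 over 12691 genes without R-3. Genes are not independent replicates, and this r is a description. Of the 37 genes higher with inhibitor 36 were tested without it, where 33 were higher, beside 25.5% of all genes, and 1 lower. Of the 110 lower with inhibitor 104 were tested without it, where 40 were lower, beside 24.6%, and 31 higher. The difference between the effects, with minus without inhibitor, was above 0 for 136 of 14965 genes (0.909%) and below 0 for 470 (3.14%) in edgeR, 4.05% in all. The difference was called for 80 of the 147 genes: below 0 for 67 of the 110 that fell, above 0 for 3 of them, and among the 37 rises above 0 for 7 and below 0 for 3. The R and RA libraries by which these genes were chosen also enter the difference. Falls therefore lean below 0 and rises above 0 by choice, and these counts are not separate evidence.

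These counts of differences, and which direction was the more frequent, also moved with single libraries. They were 1633 above and 1418 below 0 without R-3, 744 and 724 without R-2, and 147 and 635 without R-1. Without 1 of the other 9 libraries they lay between 44 and 73 above 0 and between 230 and 296 below 0.

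**Figure D4:**
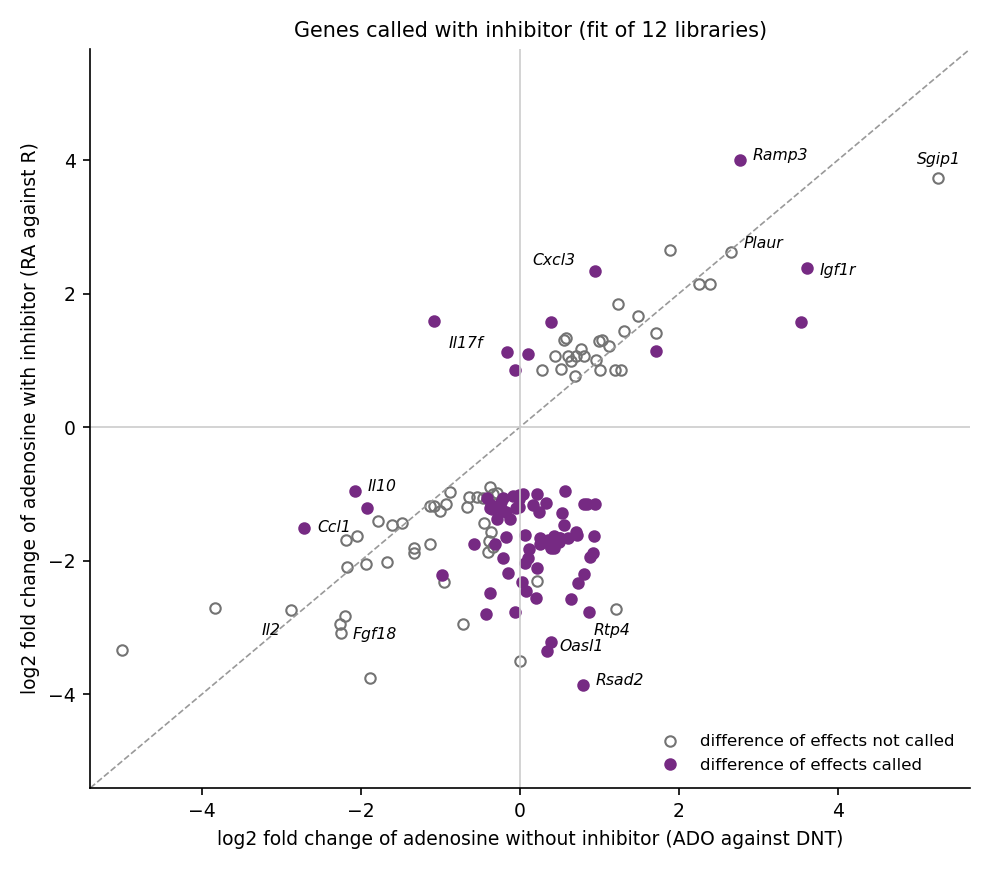
Log2 fold change of adenosine with inhibitor over that without inhibitor for the 147 genes called with inhibitor, from a fit of 12 libraries; filled purple points are the 80 genes whose effects differed by the edgeR contrast, open grey points the others, and the dashed line marks equal effects. Il2 and Plaur lie near the line, and Rsad2, Oasl1 and Rtp4 lie far below it.

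Il2 and Plaur changed alike in both settings. Il2 was at 62.5 CPM on average in DNT and 8.54 CPM in ADO, an effect of −2.87 without inhibitor beside −2.70 with it. The difference of 0.14 had an adjusted p of 0.869 in edgeR, which does not show that the effects are equal. Plaur changed by 2.66 without inhibitor and 2.64 with it (difference −0.03, adjusted p = 0.989), Tnf by −1.12 and −1.17 (difference −0.05, adjusted p = 0.908), and Cd70 by −2.17 and −2.08 (difference 0.08, adjusted p = 0.93).

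For Ccl1, Il10 and Igf1r the effect was smaller with inhibitor. Ccl1 fell by 2.70 on the log2 scale without inhibitor, from a mean of 493 to 75.7 CPM, and by 1.47 with it, a difference of 1.21 (SE 0.18, edgeR adjusted p = 0.00248). Il10 fell by 2.07 without and by 0.93 with inhibitor (difference 1.11, adjusted p = 0.00918), from a level of 29.7 CPM in DNT that was far below the 423 to 578 CPM of R. Igf1r rose by 3.62 without and by 2.40 with inhibitor (difference −1.23, adjusted p = 0.0115). Ifng fell by 1.32 without inhibitor, and the difference of 0.77 from its value with inhibitor was not called (adjusted p = 0.3). Crem rose by 1.24 without inhibitor, from 91.5 to 216 CPM, with a difference of −0.81 (adjusted p = 0.15). For Ifng and Crem R-3 was the library that stood apart.

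Some effects were larger with inhibitor. Ramp3 was at 17.9 CPM in DNT and 123 CPM in ADO, a rise of 2.78 beside 4.02 with inhibitor (difference 1.22, SE 0.18, edgeR adjusted p = 0.00237), and its level in DNT was well above that in R. Cxcl3 rose by 0.95 without and 2.36 with inhibitor (difference 1.39, adjusted p = 0.000228). Il17f fell by 0.15 without inhibitor (adjusted p = 0.0402) and rose with it (difference 1.28, adjusted p = 0.000279). Klrg1 and Sh2d1b2 were not called without inhibitor (log2 −0.14 and −0.06), where they lay at 1.64 and 1.77 CPM in DNT, and their differences were −2.03 and −2.70 (adjusted p 0.00679 and 5.79e-05).

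Interferon-stimulated genes went opposite ways. Rsad2 rose without inhibitor from 32.5 to 56.7 CPM (log2 0.80), against its fall with inhibitor, a difference of −4.66 (SE 0.20, edgeR adjusted p = 1.21e-07). Oasl1 and Rtp4 rose by 0.34 and 0.88 without inhibitor, with differences of −3.69 and −3.64, and Irf7 rose from 60.3 to 112 CPM (difference −2.83, adjusted p = 7.75e-07). Of 40 genes of the interferon list tested without inhibitor 34 rose and 1 fell, beside 25.5% and 24.6% of all genes. The difference was below 0 for 30 of 40, beside 3.14% of all genes. Of the 15 called lower with inhibitor 13 rose without it, and the difference was below 0 for all 15. These 15 were chosen by R and RA libraries that also enter the difference, so they lean below 0 by choice. The Ifi200 family rose in 7 and fell in 1 of 11 tested genes without inhibitor, with differences below 0 for 9 of 11. All 9 GTPase genes rose without inhibitor, and for 8 of them the difference was below 0: Gbp2 went from 72.3 to 180 CPM without inhibitor, a log2 fold change of 1.32. The baseline of these genes differed between the sets, and DNT was above R in Rsad2, Oasl1, Rtp4, Irf7 and Gbp2.

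**Figure D5:**
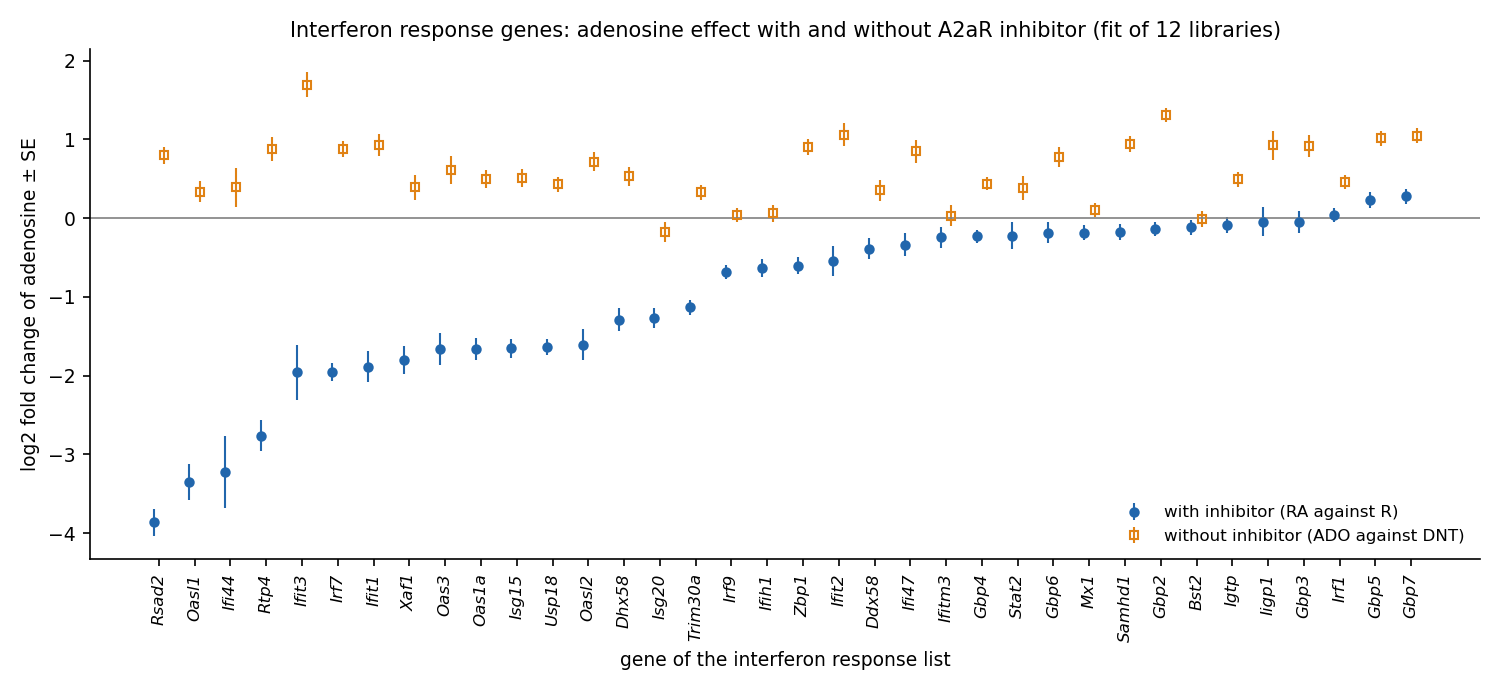
Log2 fold change of adenosine ± SE in the fit of 12 libraries for 36 of the 37 tested genes of the interferon list, with inhibitor (blue circles) and without it (orange squares), ordered by the former. With inhibitor 33 of the 36 lie below 0, and without it 34 lie above 0. The SE rest on a spread estimated jointly over the 12 libraries and can understate the spread of R.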

How the data were processed

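RNA-seq raw counts per gene were deposited in 3 tables, of which those with the RA and R libraries and with the ADO and DNT libraries, each of 53465 genes, were used. HISAT2 2.1.0 and GRCm38 are named in the submitters' processing notes, and the counting tool, annotation and strand setting are unknown here. Gene IDs were named by GENCODE M21 (99.6% matched). Columns were matched to samples by title. RA was compared with R in edgeR 4.0.16 (R 4.3.3), with the filterByExpr filter, TMM factors and the robust quasi-likelihood F test. Genes with a Benjamini-Hochberg adjusted p under 0.05 were called. The SE is the size of the log2 fold change divided by the root of F, and CPM are TMM-scaled. The difference of effects was a contrast over 12 libraries. DESeq2 1.42.0, limma 3.58.1, other scalings, filters, a replicate block and fits that left out each library were alternatives. The fitting script was tested on simulated data. Promoters came from RefSeq (GRCm38.p6). Figures used matplotlib 3.10.9.

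Total counts of 20156082 to 22914344 per library make 3 counts equal to 0.131 to 0.149 CPM before TMM scaling. After it 3 counts were 0.177 CPM in R-3. These values cover counting error only. Genes were named by a rule: the 12 largest rises and falls among called genes without overlap whose mean reached 5 CPM in R or RA, the 8 largest without R-3, the 4 members with the smallest p of each of 33 lists, a panel of 25 genes, the 6 most variable genes of R, and the 5 largest differences per direction. The comparison, the lists and the rule were chosen with earlier results of these data known. Some genes counted in the lists are not reported here by name.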

Additional observations from a re-analysis of the deposited data

Results flagged for a closer look

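Genes appear here because the effect of adenosine differed with and without the inhibitor in the edgeR contrast over 12 libraries, which tests the difference itself. The difference, with minus without inhibitor on the log2 scale, was above 0 for 136 genes and below 0 for 470. The 2 sets of libraries were deposited separately, so inhibitor and set cannot be told apart. Spread was estimated jointly over sets of unlike spread, so these calls can understate the spread of R.

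Differences below 0 were largest in interferon-stimulated genes: Rsad2 had −4.66, Oasl1 −3.69, Ifit3 −3.65, Rtp4 −3.64, Ifi213 −3.29, Ifi204 −3.22 and Ifi208 −3.0. Tmem119 had −2.76, Sh2d1b2 −2.70, Timp2 −2.53, Klrg1 −2.03 and Capn5 −1.24, where the fall with inhibitor was larger than any without it. Igf1r had −1.23, Fos −1.08, Klf2 −1.06, Nt5e −0.78 and Adora2a −0.65. Fos, the AP-1 subunit gene, rose without inhibitor and was level with it, and the same order held for Nt5e.

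Differences above 0 were 2.59 for Fgf2 and 2.13 for Dnah17, an axonemal dynein gene, both at most 1.41 CPM with inhibitor. Cyp1b1, a cytochrome P450 gene, had 1.85, Stra6, the retinol transporter gene, 1.72 and Slc7a2, a cationic amino acid transporter gene, 1.69, where adenosine lowered all 3 without inhibitor. Cxcl3 had 1.39, Ramp3 1.22, Ccl1 1.21, Slc1a2 1.19, Il10 1.11, Irf4 1.0 and Entpd1 0.68.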

How the results depend on the processing

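None of the 147 called genes was called in the opposite direction in the alternatives run for RA against R. Medians of the ribosomal protein and mitochondrial messenger lists, however, changed sign without R-3 (−0.29 to 0.08 and −0.29 to 0.13). The latter also changed sign with a weight per library (0.05). The calls for RA against R (37 higher, 110 lower) became 181 and 352 with DESeq2, 156 and 329 without a filter on low counts, 496 and 820 in a fit of 12 libraries, and 17 and 49 with glmTreat. Limma-voom with a weight per library gave 1356 and 1547, a weight per group 171 lower, and library sizes alone 48 lower. Leaving out 1 library gave 5 to 725 higher and 31 to 994 lower, the highest without R-3 and the lowest without RA-1 (RA-3 likewise for 31 lower). Without R-3 (725 and 994), library sizes alone gave 575 lower, R-1 as the sole R library 1089 higher, and R-2 as the sole one 3074 and 3192, where the lone library is assumed to vary like RA. These settings without R-3 were chosen after seeing the data.

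The difference of effects (136 above 0, 470 below) became 539 and 848 with DESeq2, 1790 and 1681 with a weight per library, and 72 and 168 with library sizes alone. It ran from 44 to 1633 and from 230 to 1418 when 1 library was left out. Differences above 0 outnumbered those below 0 without R-3, without R-2 (744 and 724) and with a weight per library, the opposite of the balance with all libraries. With the replicate number as a block, 29 genes were higher and 105 lower, and the difference was called for 19 and 141. Same-numbered libraries deviated from their group means with r of 0.0517, −0.205 and −0.129. These r are a description, and whether the numbers pair cultures or animals was not tested.

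Of 50 called genes named by the rule, 25 were lost without R-1, 28 without RA-1, 26 without RA-2, 27 without RA-3, 3 without R-2 and none without R-3. With library sizes alone 16 of the 50 were lost. The spread of R, with 3 libraries a group, limits which changes can be called.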
